A study of Mus musculus with 7 samples.

Results

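The 10 genes described here encode the mesenchymal intermediate filament proteins vimentin (Vim) and nestin (Nes), 7 proteins of the smooth muscle type actin cytoskeleton (Acta2, Tagln, Cnn1, Cnn2, Myl9, Tpm1 and Tpm2) and the membrane-to-actin linker moesin (Msn). They were chosen by symbol from 23955 gene names, and all 10 were among the 13768 genes tested. The RNA came from 7 cell lines of mouse esophageal epithelium. Of these, 3 carried p53R172H, a missense form of p53 (mutant 1, 2 and 3), 2 were p53 -/- (null 1 and null 3) and 2 were wild type (WT 1 and WT 2). The mutant and null lines are also labelled 4NQO for treatment, which stands for 4-nitroquinoline 1-oxide, an esophageal carcinogen, and the WT lines are not. Genotype and the 4NQO label therefore cannot be told apart in either comparison with WT. All lines were of mixed strain background and were grown on plastic in the medium KSFM. The labels do not say whether the lines came from separate animals or are single clones, so the p-values reflect only how much the lines vary, which may be technical in part.

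Intermediate filaments give cells mechanical strength. Squamous epithelial cells build theirs mostly from keratins, and vimentin is the usual type in mesenchymal cells. Nestin is a large intermediate filament protein of progenitor cells that assembles together with vimentin. Smooth muscle alpha-actin (Acta2) is carried by smooth muscle cells and by myofibroblasts, the contractile fibroblasts of wounds and tumor stroma. Its filaments are bound by transgelin (Tagln, also called SM22-alpha), calponins (Cnn1, Cnn2) and tropomyosins (Tpm1, Tpm2), and the regulatory light chain Myl9 belongs to the myosin that pulls on them. Many of these genes are known targets of serum response factor (SRF), which binds the CArG box. Moesin belongs to the ERM family (ezrin, radixin, moesin), which ties the cell membrane to cortical actin.

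Total counts ranged from 12751118 to 47000225 per library. Trp53 stood at 172 to 254 CPM in mutant lines, 4.71 to 8.73 CPM in null lines and 193 to 212 CPM in WT lines, where CPM is a TMM-normalized count scaled to library size. All 12 epithelial markers, among them Krt5, Cdh1 and Trp63, exceeded 1 CPM in every library. Their summed level was 9859 to 13302 CPM in mutant, 9246 to 13790 CPM in null and 33198 to 44822 CPM in WT lines. Krt5 and Krt14 made up 59.1 to 68.6% of this sum in mutant, 47.9 to 58.8% in null and 75.9 to 79.9% in WT lines. The other 10 markers summed to 4037 to 5138 CPM in mutant, 4813 to 5675 CPM in null and 8013 to 9021 CPM in WT lines. Single markers differed from the sum: Trp63 had a log2 fold change of -0.0042 in mutant against WT lines, and in null against WT lines those of Cdh1, Epcam, Perp and Esrp1 lay between -0.18 and 0.13. In mutant against WT lines 3 of the 12 markers passed edgeR's test as lower and none as higher, where 4.13% of all tested genes passed as lower. These were Krt5 (adjusted p = 0.0289), Grhl2 (adjusted p = 0.0249) and Epcam (adjusted p = 0.0495, at the threshold of 0.05). The dependence of calls in this comparison on single lines, given below, holds for them too. The null lines were unlike each other, and values for them are given line by line.

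Markers of other cell types differed between lines of the same group. Of 12 fibroblast markers, 9, 4 and 8 exceeded 1 CPM in mutant 1, 2 and 3, 4 and 9 in null 1 and null 3, and 2 and 5 in WT 1 and WT 2. Their summed level was 4480, 773 and 2705 CPM in the mutant lines, 322 CPM in null 1 and 2944 CPM in null 3, and 139 and 290.2 CPM in WT 1 and WT 2. Fn1 made up most of each sum, at 3486, 678 and 2263 CPM in mutant 1, 2 and 3. It stood at 311 and 2305 CPM in null 1 and null 3, and at 133 and 281 CPM in WT 1 and WT 2. The sums were highest in mutant 1, mutant 3 and null 3. Col1a1, Col3a1, Dcn, Pdgfra and Pdgfrb were also higher in these lines than in the others. Postn stood at 293 CPM in mutant 1 but 0.115 CPM in mutant 3, and Col5a1 was higher in mutant 2 (85.5 CPM) than in mutant 3 (66.0 CPM). Thy1 and Fap were under 1 CPM in every library. Lum, which encodes the matrix proteoglycan lumican, was at most 0.0203 CPM in any library. Of 8 smooth muscle markers, 4, 2 and 2 exceeded 1 CPM in mutant 1, 2 and 3, 1 and 5 in null 1 and null 3, and 2 in each WT line. Their summed level was 62.5 to 70.3 CPM in mutant, 67.4 to 103 CPM in null and 106 to 152 CPM in WT lines. Smtn made up most of each sum, at 59.8 to 149 CPM, and Des stood at 26.0 CPM in null 3 and at most 0.568 CPM elsewhere. Actg2, Lmod1 and Synpo2 were at most 2.75 CPM, and the remaining 3 were near 0 in every library, with Myh11 (smooth muscle myosin heavy chain) at 0.456 CPM or less, Myocd (the SRF coactivator myocardin) at 0.38 CPM or less and Kcnmb1 at 0.0407 CPM or less. Skeletal muscle markers summed to 114 CPM in null 3 and to at most 22.5 CPM elsewhere. In null 3, 7 of 8 exceeded 1 CPM, including the muscle transcription factors Myod1 (23.0 CPM) and Myog (29.0 CPM), both without a count in either WT library. Mutant 1 also had counts of them (0.61 and 0.122 CPM), and the muscle factor Myf5 stood at 7.30 CPM in mutant 1, 3.15 CPM in null 3 and 0 in the other lines. Endothelial markers summed to at most 2.16 CPM and neural crest and glial markers to at most 3.23 CPM. Of 7 immune markers only Cd68, which other cell types also express, exceeded 1 CPM. The part that these cell type markers play in the values below was not tested. In such bulk RNA, fewer cells of a type and less RNA per cell cannot be told apart.

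**Figure D1:**
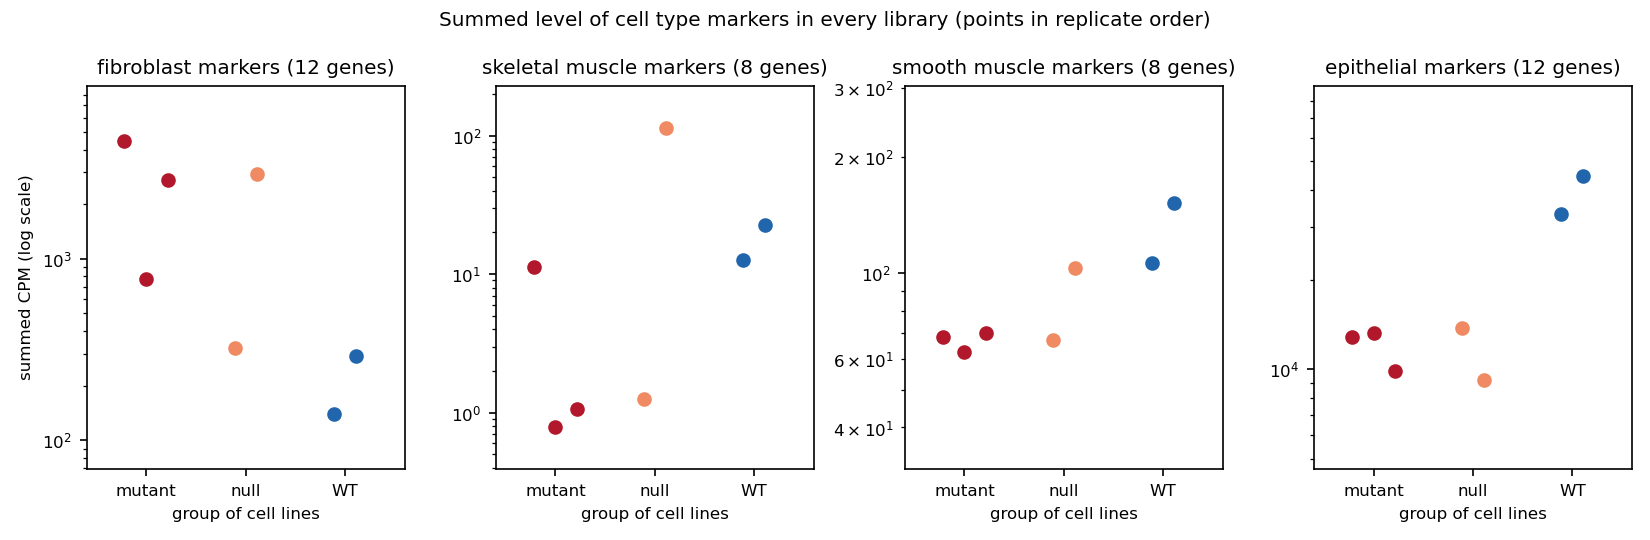
Summed TMM-normalized CPM (log scale) of 4 lists of cell type markers in each library, 1 point a library, for mutant, null and WT lines. Null 3 stands at 114 CPM for skeletal muscle markers, and the epithelial marker sum, in large part Krt5 and Krt14, is lower in every mutant and null line than in both WT lines.

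The promoters were searched for the CArG box because several of these genes are textbook SRF targets and because they differed in pattern across the lines. Windows of 250 bases upstream of the start of the gene were taken from RefSeq (build GRCm38.p6) for the 9 members that matched, which leaves out Tagln. A CArG box was found in 2 of the 9, Myl9 and Cnn2, against 1.47% of 32851 such windows of all genes. A near match, with 1 G or C in the central A/T run and no overlap with a CArG box, was found in Acta2, at 2 places, and in Myl9, against 7.24% of all windows. GGAATG, the letters bound by TEAD factors, was read on both strands and found in Acta2 and Tpm1, against 12.6% of all windows. The windows with a match are printed 5′ to 3′ on the strand of the gene, with these matches in capitals.
Acta2: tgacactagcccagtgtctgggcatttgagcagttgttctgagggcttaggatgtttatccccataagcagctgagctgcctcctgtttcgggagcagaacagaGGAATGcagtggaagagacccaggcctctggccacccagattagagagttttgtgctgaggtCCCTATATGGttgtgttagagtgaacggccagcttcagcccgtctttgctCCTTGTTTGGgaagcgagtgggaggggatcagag
Myl9: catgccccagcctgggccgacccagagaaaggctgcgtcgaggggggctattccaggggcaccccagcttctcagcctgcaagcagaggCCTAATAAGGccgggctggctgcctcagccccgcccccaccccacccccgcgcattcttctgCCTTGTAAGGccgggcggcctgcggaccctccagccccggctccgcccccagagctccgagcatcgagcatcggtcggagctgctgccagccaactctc
Cnn2: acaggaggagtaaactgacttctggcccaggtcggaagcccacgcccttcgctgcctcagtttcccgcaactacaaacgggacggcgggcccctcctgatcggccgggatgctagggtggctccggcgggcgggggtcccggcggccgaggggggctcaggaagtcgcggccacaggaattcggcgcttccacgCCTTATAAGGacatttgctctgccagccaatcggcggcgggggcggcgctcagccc
Tpm1: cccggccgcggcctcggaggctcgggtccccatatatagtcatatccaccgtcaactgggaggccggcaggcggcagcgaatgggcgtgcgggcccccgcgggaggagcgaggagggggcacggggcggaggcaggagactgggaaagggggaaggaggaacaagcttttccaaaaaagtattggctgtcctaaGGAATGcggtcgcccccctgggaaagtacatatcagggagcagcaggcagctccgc
The Acta2 window is chr19:34255374-34255623 on the minus strand, that of Myl9 chr2:156775214-156775463 on the plus strand, that of Cnn2 chr10:79988350-79988599 on the plus strand and that of Tpm1 chr9:67049214-67049463 on the minus strand. The near matches of Acta2 are CCCTATATGG and CCTTGTTTGG, which begin 84 and 34 bases before the start. The CArG box of Myl9, CCTAATAAGG, begins 161 bases before the start, and that of Cnn2, CCTTATAAGG, 56 bases before it. A match is a description of letters and not a measured binding site. Whether a match goes with the level of a gene across the lines was not tested. The levels of all members follow.

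Both intermediate filament genes differed widely between lines. Vim stood at 343, 577 and 825 CPM in mutant 1, 2 and 3, at 2.71 CPM in null 1 and 225 CPM in null 3, and at 0.646 and 3.41 CPM in WT 1 and WT 2. Every mutant line was far above both WT lines, null 3 was between the mutant and WT lines, and null 1 lay within the WT range. Nes stood at 39.5, 1.495 and 6.15 CPM in mutant 1, 2 and 3, at 1.34 and 43.1 CPM in null 1 and null 3, and at 0.238 and 0.406 CPM in WT 1 and WT 2. The order of the mutant lines thus differed between the genes, with mutant 1 lowest for Vim and highest for Nes. For Vim the higher null line was 83.0 times the lower, against 2.40 times between the highest and lowest mutant lines and 5.28 times between the WT lines.

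**Figure D2:**
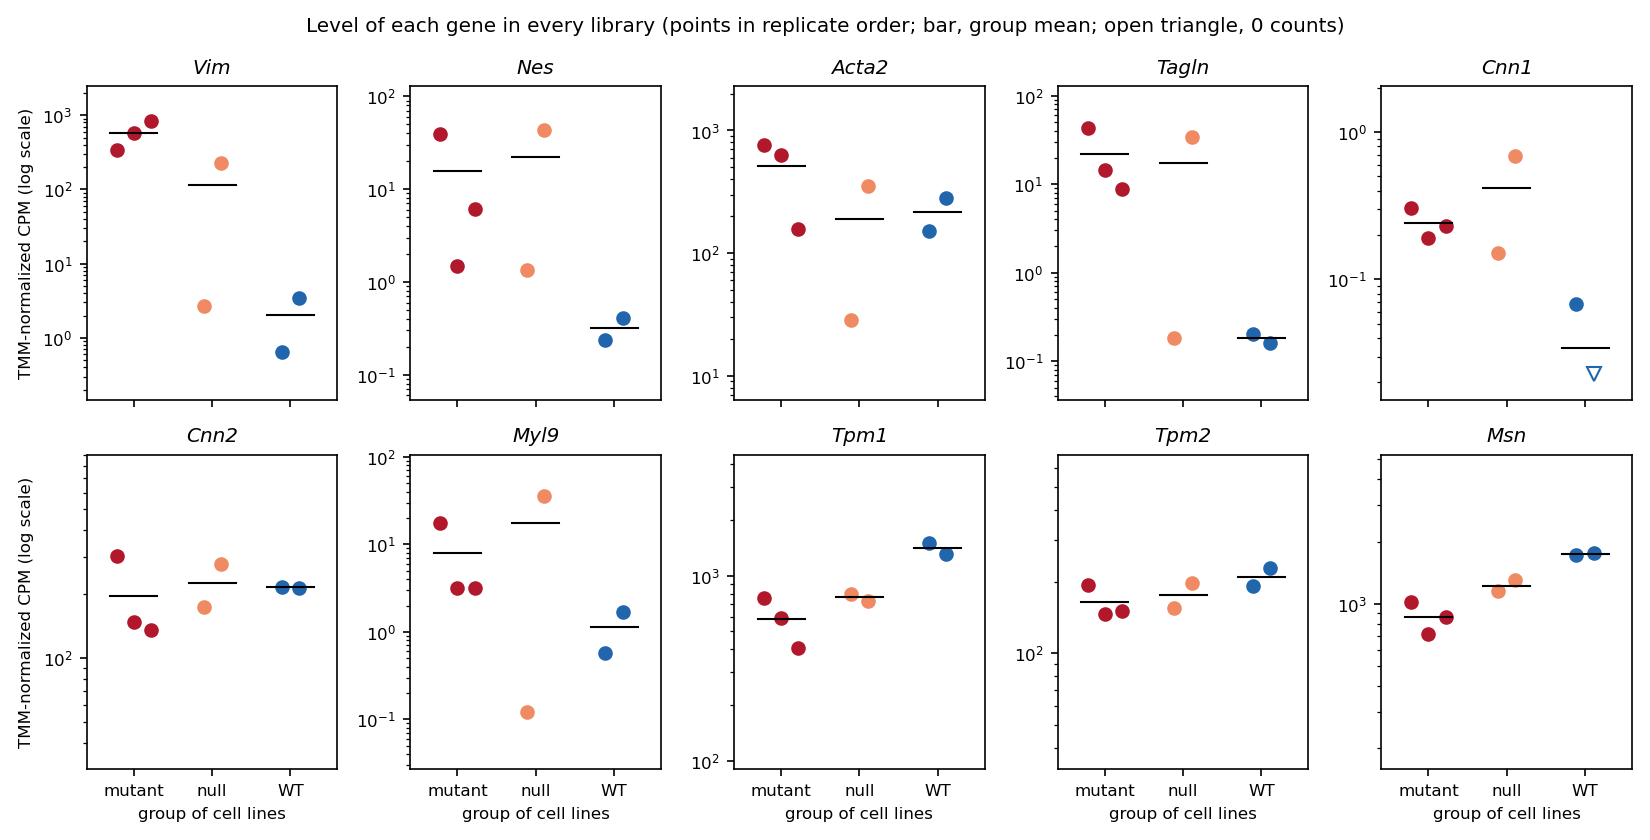
TMM-normalized CPM (log scale) of the 10 genes in each library for mutant (n = 3), null (n = 2) and WT (n = 2) lines, with points in replicate order and a bar at the arithmetic group mean. The Cnn1 library with 0 counts, WT 2, is an open triangle. Vim and Tagln show null 1 beside the WT lines and null 3 near or among the mutant lines.

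Of the actin and actin-binding genes, Acta2 was expressed in every line, WT included. It stood at 768, 625 and 157 CPM in mutant 1, 2 and 3, at 28.3 and 349.8 CPM in null 1 and null 3, and at 151 and 279 CPM in WT 1 and WT 2. Mutant 3 fell inside the WT range and null 1 was the lowest of all 7 lines. Acta2 shares much of its coding sequence with other muscle actin genes, and how reads that fit several genes were counted is not given in the sources used here. Tagln, by contrast, was close to absent in WT. It stood at 42.9, 14.4 and 8.95 CPM in mutant 1, 2 and 3, at 0.183 and 34.5 CPM in null 1 and null 3, and at 0.204 and 0.162 CPM in WT 1 and WT 2. The Tagln value of null 1 rests on 6 counts, the same number as in WT 1. Its relative Tagln2, which is common in non-muscle cells, took 94.33 to 99.98% of the summed counts of the pair in every line.

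The calponins went separate ways. Cnn1, the smooth muscle calponin, had 15, 8 and 10 counts in mutant 1, 2 and 3, 5 and 18 counts in null 1 and null 3, and 2 and 0 counts in WT 1 and WT 2. It reached at most 0.683 CPM, and it passed the low-count filter through its few higher libraries. The ratio to WT was 5.1 for the mutant lines (exact 95% counting interval 1.3 to 43.9) and 8.1 for the null lines (2 to 70.9). These intervals pool the counts of the lines in a group and leave out the spread between lines. By edgeR, which includes that spread, Cnn1 passed in neither comparison. Cnn2, the calponin of non-muscle and smooth muscle cells, stood at 301, 149 and 136 CPM in mutant 1, 2 and 3, at 174 and 278 CPM in null 1 and null 3, and at 217 and 213 CPM in WT 1 and WT 2. The WT lines lay inside the range of both other groups. Of the counts of Cnn1, Cnn2 and Cnn3 together, Cnn2 took 26.3, 17.9 and 20.1% in mutant 1, 2 and 3, 30.6 and 29.4% in null 1 and null 3, and 30.3 and 33.9% in WT 1 and WT 2. Cnn3, the third calponin, made up nearly all of the rest.

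Myl9 was low in most lines. It stood at 17.3, 3.13 and 3.21 CPM in mutant 1, 2 and 3, at 0.122 and 35.3 CPM in null 1 and null 3, and at 0.578 and 1.71 CPM in WT 1 and WT 2. All mutant lines were above both WT lines, while null 1 was the lowest and null 3 the highest of all lines. The higher null line was 289.8 times the lower, and the lower value rests on 4 counts. Null 3 is also the line with the highest Myod1 and Myog levels.

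The tropomyosins were high in WT. Tpm1, which coils along actin filaments, stood at 755, 593 and 405 CPM in mutant 1, 2 and 3, at 794 and 733 CPM in null 1 and null 3, and at 1500.2 and 1315 CPM in WT 1 and WT 2. All 5 mutant and null lines were below both WT lines, and here null 1 and null 3 were alike. Tpm2, the beta-tropomyosin gene, stood at 194, 147 and 151 CPM in mutant 1, 2 and 3, at 155 and 198 CPM in null 1 and null 3, and at 192 and 228 CPM in WT 1 and WT 2, so the groups overlapped. The share of Tpm1 among the counts of Tpm1, Tpm2, Tpm3 and Tpm4 was 31.1, 31.4 and 23.9% in mutant 1, 2 and 3, 39.4 and 32.7% in null 1 and null 3, and 50.9 and 44.5% in WT 1 and WT 2. That of Tpm4, a tropomyosin of non-muscle cells, was 52.0, 47.9 and 53.2% in mutant lines, 42.8 and 49.6% in null lines, and 34.3 and 39.2% in WT lines. The level of Tpm4 itself had a log2 fold change of -0.08 in mutant against WT lines (edgeR adjusted p = 0.824) and -0.14 in null against WT lines (adjusted p = 0.781). Summed over the 4 genes, tropomyosin counts were 1698 to 2430.1 CPM in mutant, 2016 to 2238 CPM in null and 2951 to 2957 CPM in WT lines. Such shares compare lines for the same genes and not genes with each other, since longer transcripts give more reads. Their exact (Clopper-Pearson) 95% intervals spanned at most 2.12 percentage points and cover counting error only.

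Moesin was also highest in WT. Msn stood at 1022, 716 and 861 CPM in mutant 1, 2 and 3, at 1151 and 1305 CPM in null 1 and null 3, and at 1733 and 1757 CPM in WT 1 and WT 2. The 3 groups did not overlap, with null lines in between. Within the ERM genes, Msn took 63.6, 50.4 and 55.2% of counts in mutant 1, 2 and 3, 70.1 and 71.1% in null 1 and null 3, and 66.9 and 66.6% in WT 1 and WT 2. Rdx, which encodes radixin, took 17.2, 20.03 and 21.0% in mutant lines, 13.6 and 13.2% in null lines, and 8.19 and 6.86% in WT lines, so its share was higher in every mutant and null line than in either WT line. No test was run on these shares.

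**Figure D3:**
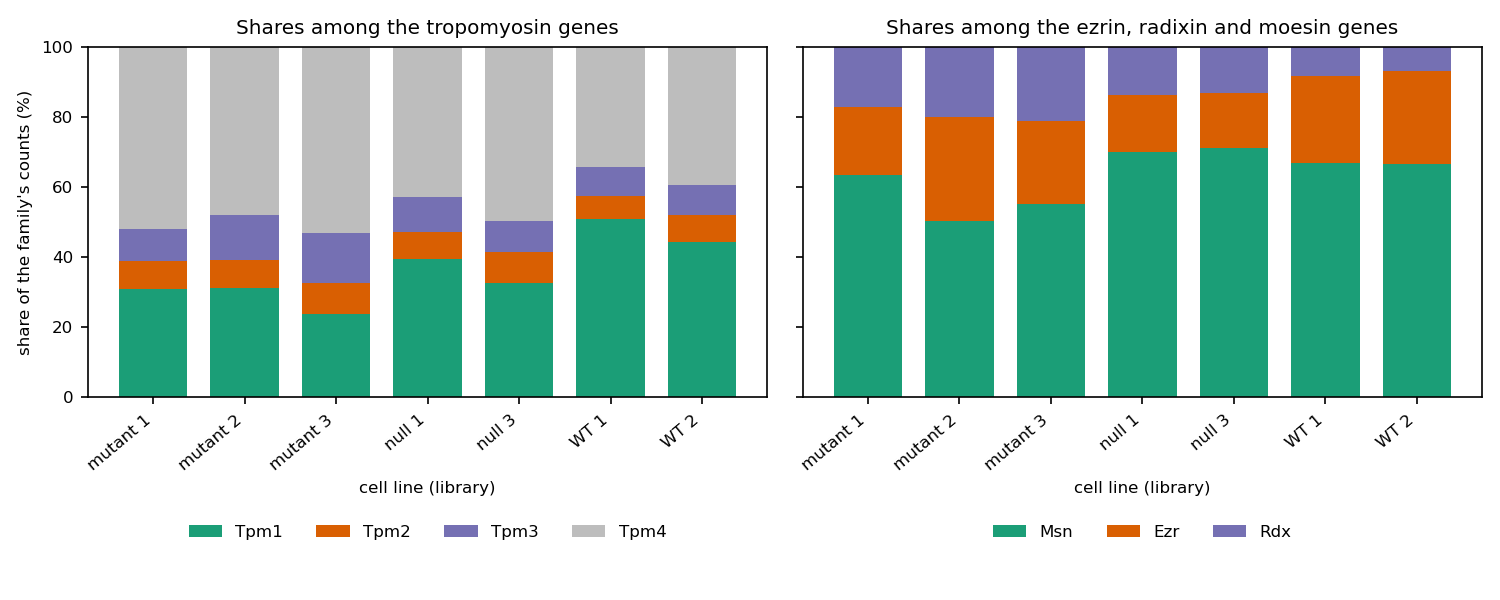
Share of the summed counts (%) taken by each tropomyosin gene (left) and by each ERM gene (right) in every library, with mutant lines at the left, null lines in the middle and WT lines at the right of each panel. Tpm1 takes 23.9 to 39.4% in mutant and null lines and 44.5 to 50.9% in WT lines.

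Mutant lines were set against WT lines to find differences that go with p53R172H together with 4NQO. Of the 10 genes, Tpm1 and Msn fell and none rose by edgeR's quasi-likelihood test. Of all 13768 tested genes 7.42% passed, 3.30% higher and 4.13% lower. An unadjusted p under 0.05 was reached by 5 of the 10 genes, against 30.5% of all tested genes. Tpm1 averaged 585 ± 175 CPM in mutant and 1407 ± 131 CPM in WT lines and differed by -1.27 on the log2 scale (SE 0.268, adjusted p = 0.0429). Msn averaged 866 ± 153 CPM in mutant and 1745 ± 16.9 CPM in WT lines and differed by -1.01 on the log2 scale (SE 0.201, adjusted p = 0.0382). Errors are SD with n = 3 mutant and n = 2 WT lines. The calls of both genes rested on most of the lines. The adjusted p of Tpm1 was 0.18 without WT 1, 0.224 without WT 2, 0.105 without mutant 2 and 0.0946 without mutant 3, and that of Msn was 0.154, 0.23, 0.0959 and 0.114.

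The larger differences between mutant and WT lines did not pass the test, and their standard errors were also larger. The log2 fold change was 8.29 for Vim (SE 2.10, adjusted p = 0.0599), 6.85 for Tagln (SE 2.23, adjusted p = 0.1) and 5.66 for Nes (SE 2.15, adjusted p = 0.135). Vim and Tagln passed without null 1 (adjusted p = 0.0145 and 0.0209) and without null 3 (adjusted p = 0.0127 and 0.019), though neither null line is part of this comparison. All groups share an estimate of spread, to which the unlike null lines add. With the 2 groups fitted alone, Vim and Tagln had adjusted p = 0.0119 and 0.0178. That fit called 1521 genes in all, against 1022 with all 7 lines. DESeq2 called Vim (adjusted p = 7.79e-06), Nes (0.000579) and Tagln (0.00135). It called 3198 of all tested genes, where edgeR called 1022. Vim also passed without the low-count filter (adjusted p = 0.0391) and with the newer form of the fit (adjusted p = 0.0496). Myl9 had 2.83 (SE 1.94, adjusted p = 0.353), Cnn1 2.41 (SE 1.25, adjusted p = 0.238, a fitted value that depends on the prior count), Acta2 1.27 (SE 1.06, adjusted p = 0.445), Cnn2 -0.14 (SE 0.384, adjusted p = 0.826) and Tpm2 -0.36 (SE 0.197, adjusted p = 0.259). The mutant and WT lines did not overlap for 5 genes that were higher in mutant lines (Vim, Nes, Tagln, Cnn1 and Myl9) and 2 that were lower (Tpm1 and Msn). Of all tested genes 52.6% did not overlap, 26.9% higher and 25.7% lower in mutant lines. Nes, Tagln and Cnn1 had at most 7 counts in either WT library. They passed the low-count filter through lines where they are higher, so their lack of overlap adds no support. The median log2 fold change of the 10 genes was 1.84, against 0.08 over all tested genes. It lies between the values of Acta2 and Cnn1, neither of which passed, and Cnn1 rests on few counts. The genes were chosen with earlier results of these data known, so the median is not read as a shift of the group.

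**Figure D4:**
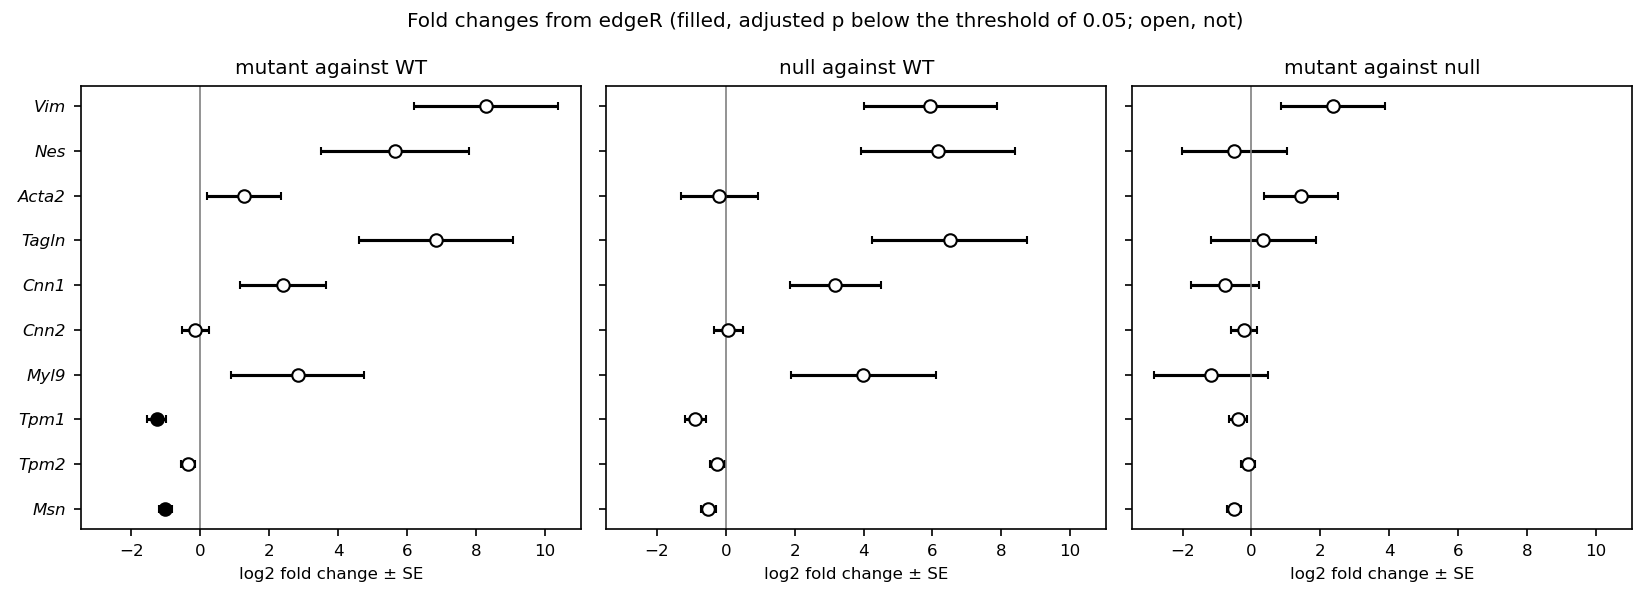
Log2 fold change with its standard error for the 10 genes in mutant against WT, null against WT and mutant against null lines, from edgeR. Filled points passed at an adjusted p of 0.05, and these are Tpm1 and Msn in mutant against WT lines.

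Of 72 related cytoskeleton genes tested in mutant against WT lines, counted once where lists share a gene, 5 passed. That is 6.94%, near the 7.42% of all tested genes. Of 14 tested genes of smooth muscle contraction, Smtn, which encodes the actin-binding smoothelin, fell to 62.7 ± 3.96 CPM in mutant lines, against 127 ± 31.99 CPM in WT lines, by 1.01 on the log2 scale (adjusted p = 0.0328), and none rose. Of 23 widely expressed actin and myosin genes none passed. The smallest p were those of the focal adhesion gene Zyx, at 584 ± 129 CPM in mutant lines against 306 ± 34.0 CPM in WT lines (adjusted p = 0.0671), and the myosin light chain gene Myl12a (adjusted p = 0.124). Of 15 genes of SRF, its coactivators and their known targets, Srf itself rose to 168 ± 14.8 CPM in mutant lines, against 93.9 ± 18.8 CPM in WT lines, by 0.83 on the log2 scale (adjusted p = 0.0468). With RLE factors in place of TMM it had adjusted p = 0.0513, and with limma-voom 0.057, so its call lies at the threshold. Of 11 ERM genes and partners, Ezr (ezrin) and Nf2 (merlin, the ERM-related tumor suppressor) fell. Ezr averaged 366 ± 55.2 CPM in mutant lines against 673 ± 37.7 CPM in WT lines (log2 fold change -0.88, adjusted p = 0.0383), and Nf2 104 ± 8.001 CPM in mutant lines against 188 ± 41.0 CPM in WT lines (-0.85, adjusted p = 0.045). With limma-voom Nf2 did not pass (adjusted p = 0.0567). Rdx had a log2 fold change of 0.59 (adjusted p = 0.0679). Of 13 other intermediate filament genes and linkers, Plec, the linker plectin, fell to 501 ± 97.5 CPM in mutant lines, against 1266 ± 129 CPM in WT lines (log2 fold change -1.34, adjusted p = 0.0302). Without WT 1 or WT 2 no gene of the whole table was called, and without mutant 2 or mutant 3 there were 37 and 6. Smtn, Srf, Ezr, Nf2 and Plec lost their calls in each of these. Srf also lost its call without mutant 1 (adjusted p = 0.0646) and without null 1 (adjusted p = 0.0505). The median log2 fold changes of these 5 lists, in the order given, were 0.56, -0.06, 0.11, 0.24 and -0.57, against 0.08 over all tested genes.

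Null lines were set against WT lines to find differences that go with p53 loss together with 4NQO. None of the 10 genes passed by edgeR, against 0.138% of all tested genes (0.0726% higher and 0.0654% lower), and 5 of the 10 had an unadjusted p under 0.05, against 20.2% of all tested genes. DESeq2 called 4 of them, Vim, Nes, Tagln and Tpm1. It also called 1549 of all 13768 tested genes, where edgeR called 19. The log2 fold change was 6.16 for Nes (SE 2.23, adjusted p = 0.207), 6.50 for Tagln (SE 2.25, adjusted p = 0.194), 5.94 for Vim (SE 1.94, adjusted p = 0.183) and 3.99 for Myl9 (SE 2.11, adjusted p = 0.326). These averages joined unlike lines. Without null 3 the values were 2.11 for Nes, -0.04 for Tagln, 0.57 for Vim and -3.16 for Myl9. Without null 1 they were 7.13, 7.48, 6.94 and 4.996 in the same order, and none of the 8 values passed. Tpm1 averaged 763 ± 43.8 CPM in null and 1407 ± 131 CPM in WT lines and differed by -0.88 on the log2 scale (SE 0.300, adjusted p = 0.189), and Msn 1228 ± 109 CPM in null and 1745 ± 16.9 CPM in WT lines, -0.51 (SE 0.224, adjusted p = 0.264), with n = 2 each. For both genes the null lines were alike. The others had 3.18 (Cnn1, SE 1.32), -0.18 (Acta2, SE 1.12), -0.25 (Tpm2, SE 0.218) and 0.07 (Cnn2, SE 0.422), with adjusted p from 0.245 to 0.939. The null and WT lines did not overlap for Nes and Cnn1, higher in null lines, and Tpm1 and Msn, lower in null lines, against 29.1% and 27.1% of all tested genes (56.1% in either direction). For Nes and Cnn1 this adds no support, since both passed the low-count filter through lines other than WT. The median over the 10 genes was 1.63, against 0.06 over all tested genes. It lies between the values of Cnn2 (0.07) and Cnn1 (3.18) and is not read as a shift of the group either.

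No gene of the 5 related lists passed in null against WT lines, and the same WT lines served both comparisons. The smallest p were those of Ezr, at 278 ± 14.3 CPM in null lines against 673 ± 37.7 CPM in WT lines (adjusted p = 0.0767), and Plec, at 499.6 ± 99.1 CPM in null lines against 1266 ± 129 CPM in WT lines (adjusted p = 0.0995). Smtn had a log2 fold change of -0.89 (adjusted p = 0.118) and Tagln2 of -1.05 (adjusted p = 0.121), while Mkl1, which encodes an SRF coactivator, had 0.67 (adjusted p = 0.129). The others named by the same rule were Lmnb1 (-0.999, adjusted p = 0.111), Slc9a3r1 (-0.91, adjusted p = 0.155), Egr1 (-2.26, adjusted p = 0.202), Vcl (-0.69, adjusted p = 0.214) and Des (5.48, adjusted p = 0.299). Desmin, the muscle intermediate filament encoded by Des, stood at 0.213 and 26.0 CPM in null 1 and null 3, against 0.068 and 0.568 CPM in WT 1 and WT 2.

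Mutant and null lines have the 4NQO label in common, so their comparison sets p53R172H against the loss of p53. None of the 10 genes passed by edgeR, and of all 13768 tested genes 0% did. Msn alone had an unadjusted p under 0.05 (-0.50 on the log2 scale, SE 0.202, adjusted p = 0.344), against 14.0% of all tested genes, and DESeq2 called none of the 10. The log2 fold change was 2.36 for Vim (SE 1.51, adjusted p = 0.502), 1.45 for Acta2 (SE 1.07, adjusted p = 0.559) and -0.39 for Tpm1 (SE 0.270, adjusted p = 0.537). Those of the other members were 0.35 for Tagln, -0.11 for Tpm2, -0.21 for Cnn2, -0.50 for Nes, -0.77 for Cnn1 and -1.16 for Myl9, with adjusted p from 0.752 to 0.938. Set against null 1 alone, with null 3 left out, the mutant lines had 7.75 for Vim, 6.89 for Tagln, 5.98 for Myl9, 4.19 for Acta2 and 3.55 for Nes, and none of these passed either. Set against null 3 alone they had 1.38 for Vim, -0.64 for Tagln, -2.15 for Myl9, 0.57 for Acta2 and -1.45 for Nes. Only Vim, higher in mutant lines, and Msn, lower in mutant lines, did not overlap between the groups, against 16.0% and 15.1% of all tested genes (31.1% in either direction). The median over the 10 genes was -0.30, against 0.02 over all tested genes. No gene of the related lists passed, with the smallest p for Tagln2, at 1012 ± 189 CPM in mutant lines against 509 ± 93.9 CPM in null lines (adjusted p = 0.264). The others named by the same rule were Vcl (0.80), Csrp1 (0.94), Ppp1r12a (0.45), Srf (0.43), Ezr (0.40), Lmna (0.65), Podxl (-0.82) and Nefh (-2.72), with adjusted p from 0.287 to 0.378.

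**Figure D5:**
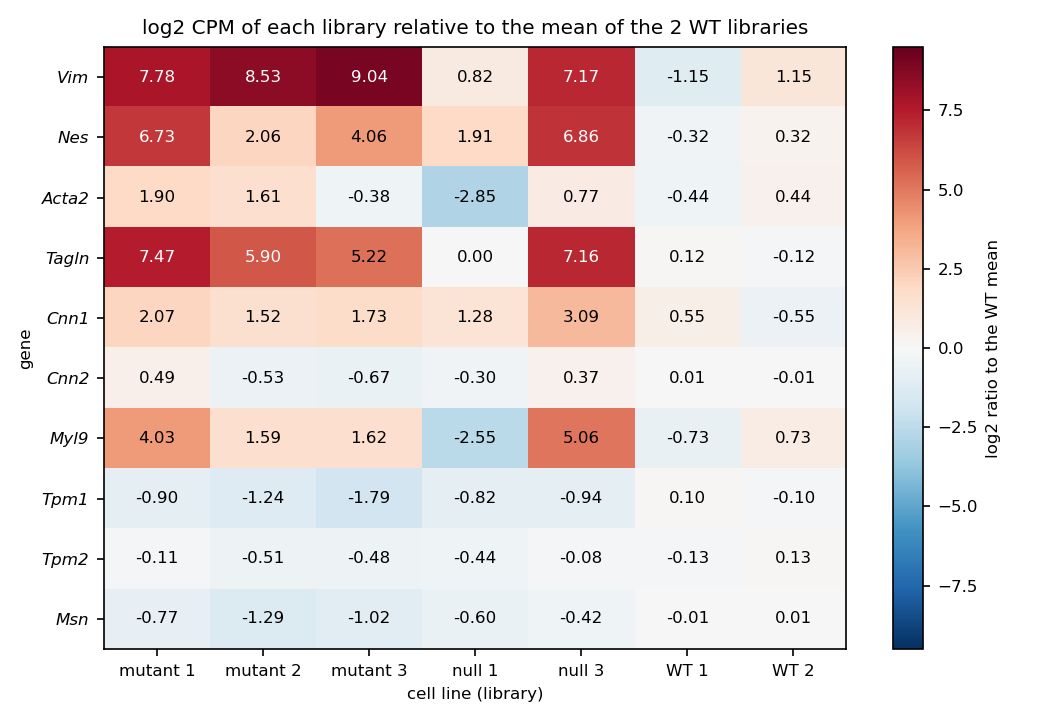
Log2 CPM (prior count 2) of each gene in each library minus the mean of the 2 WT libraries, with mutant lines at the left, null lines in the middle and WT lines at the right. Null 1 is at 0.82 for Vim and 0.00 for Tagln, where null 3 is at 7.17 and 7.16.

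The 10 genes did not share a pattern across the 7 lines. As a measure of likeness, the root mean square difference between 2 genes' log2 CPM, each centred on its own mean, was taken over the 7 libraries. It was smallest for Cnn2 and Tpm2 (0.27), Tpm1 and Msn (0.29), and Tpm2 and Msn (0.30). The measure is not scaled, so genes that vary little lie close to each other whatever their pattern. Over the 10427 other genes used below, the median lay 0.42 from Tpm2, 0.56 from Cnn2, 0.58 from Msn and 0.70 from Tpm1. Tagln was closer to Vim (1.57), Nes (1.62) and Myl9 (1.65) than to Acta2 (2.49), while the median gene lay 3.27 from Tagln. Tagln varied more across the lines than Acta2, and the measure counts such a difference in size as distance. It therefore cannot say whether the patterns of these smooth muscle genes differ. Acta2 (1.53) and Nes (1.55) were the nearest members to Myl9, from which the median gene lay 2.45. From Acta2 the median gene lay 1.52, no farther than Myl9, and its own nearest member was Cnn2 (1.38). Vim and Tpm1 were the farthest apart (4.50). Among 10427 other genes with a mean of at least 5 CPM, the nearest to Vim were Zeb1 (0.69), Dlx2 (0.92) and Arhgap20 (0.93), where the median gene was at 3.98. The nearest to Tagln were Sdpr (0.53), Adamts2 (0.78) and Epb4.1l3 (0.81), with the median at 3.27. The nearest to Acta2 were Tbx18 (0.58), Timp1 (0.61) and Dlc1 (0.65), with the median at 1.52. The nearest to Msn were Entpd6, Daam1 and Ermp1 (0.10 each), with the median at 0.58. Zeb1, a repressor of E-cadherin, stood at 28.9, 53.6 and 53.7 CPM in mutant 1, 2 and 3, at 0.274 and 6.23 CPM in null 1 and null 3, and at 0.034 and 0.162 CPM in WT 1 and WT 2. As for Vim, null 1 was close to the WT lines and null 3 lay between them and the mutant lines. Zeb1 was picked for its likeness to Vim in these same libraries, so the shared pattern adds no support for a link.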

How the data were processed

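Libraries were prepared from messenger RNA with TruSeq Stranded reagents, per the labels' protocols. The authors deposited raw counts per gene symbol for 7 libraries in a table of 24047 names. STAR 2.5.1b and the mouse build mm9 are named in the submitters' processing notes. Neither the annotation nor how reads were counted, strand included, is given in the sources used here. Counts of paralogs and of overlapping genes are uncertain for that reason. The 92 spike-in names held 0 counts and were left out.

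Groups were taken from the titles. Within groups, libraries differed by more than counting error (chi-square divided by its degrees of freedom, 55.9 to 233.6). All 7 entered a single fit in R 4.3.3 with edgeR 4.0.16 (quasi-likelihood F test, legacy form, TMM, default filter by group, Benjamini-Hochberg over 13768 genes, threshold 0.05), tested on simulated data. The standard error is the log2 fold change divided by the square root of F. The 10 genes and the 12 other lists were chosen with earlier results of these data known. Named from the related lists were called genes, up to 4, or else the 2 with the smallest p. Alternatives were RLE factors, other filters, DESeq2 1.42.0, limma-voom (limma 3.58.1), the newer form of the fit, only the groups compared, the replicate number as a block and each library omitted in turn.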

Additional observations from a re-analysis of the deposited data

How the results depend on the processing

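In mutant against WT lines, where 2 of the 10 genes passed, 5 passed with DESeq2 (also Vim, Nes and Tagln), 4 with the 2 groups fitted alone (also Vim and Tagln), 0 with a replicate block, 3 without the low-count filter or with the newer form of the fit (also Vim), and 0 to 4 without a library. Tpm1 and Msn passed under every other alternative except the block and without WT 1, WT 2, mutant 2 or mutant 3, and each was lower in all of them. In null against WT lines, where 0 passed (5 at an unadjusted p under 0.05), DESeq2 called 4 (Vim, Nes, Tagln and Tpm1), and every other alternative gave 0. In mutant against null lines all alternatives gave 0. Calls over all tested genes in mutant against WT lines also rose under the settings that called more members. From 1022 they rose to 1521 with the 2 groups fitted alone, 1136 without the low-count filter and 1335 with the newer form of the fit.

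Of 438 values of the 10 genes under alternatives, 20 turned direction, none of them called in either fit. Those that turned without a library ranged from -0.62 to 0.0499 (Cnn2, mutant against WT), -2.92 to 0.70 (Acta2), -0.0437 to 7.48 (Tagln), -0.30 to 0.37 (Cnn2) and -3.16 to 4.996 (Myl9) in null against WT. In mutant against null they ranged from -2.55 to 3.55 (Nes), -0.64 to 6.89 (Tagln), -1.48 to 0.66 (Cnn1), -0.69 to 0.17 (Cnn2), -2.50 to 5.98 (Myl9) and -0.26 to 0.0863 (Tpm2). With limma-voom Nes and Myl9 turned to 0.22 and 1.70 in mutant against null. With the replicate block they turned to 0.80 and 1.30, and Cnn2 in null against WT to -0.0036. Des in null against WT ranged from -0.48 to 7.51 without a library. The cause was not tested. Cnn1, Tagln and 2 related genes had no value where a filter removed them or DESeq2 gave no adjusted p.

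The replicate numbers showed no consistent pairing of the lines. Mutant 1 and null 1 deviated from their group means in opposite ways (r = -0.405 across genes), while WT 1 and null 1 had r = 0.138. With 2 null lines, the value for mutant 1 and null 3 (r = 0.405) only repeats that for null 1 with its sign turned. Of all tested genes 1022 passed in mutant against WT, 3198 with DESeq2, 0 with the block and 0 to 1420 without a library. In null against WT the counts were 19, 1549 with DESeq2, 0 with limma-voom or the block, 77 without the filter, 55 with the newer form and 0 to 55 without a library. In mutant against null they were 0, 604 with DESeq2, 1 or 2 with RLE factors, other filters or the newer form, and 0 to 22 without a library. The smallest library had 12751118 counts, and Cnn1 is limited by its counts in all of them.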

Other observations

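Among the other actin genes, which are not members of the group described above, the skeletal and cardiac muscle actins differed from Acta2. Acta1 (skeletal muscle alpha-actin) stood at 2.77, 0.783 and 0.574 CPM in mutant 1, 2 and 3, at 1.07 and 23.4 CPM in null 1 and null 3, and at 12.4 and 22.2 CPM in WT 1 and WT 2. It was below both WT lines in every mutant line and in null 1, and above them in null 3. Its log2 fold change in mutant against WT lines was -3.65 (SE 1.23, edgeR adjusted p = 0.107). Actc1 (cardiac alpha-actin) stood at 13.9 CPM in null 3 and at most 0.163 CPM in any other library. Ttn, which encodes the muscle protein titin, stood at 17.5 CPM in null 3 and at most 0.459 CPM elsewhere. These genes were singled out after their values were seen.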
